A study of Mus musculus with 24 samples.

Results

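The change of translational efficiency (TE) upon Torin1, which blocks the kinase mTOR, was measured transcript by transcript in the control (ctrl) cells of a study of the cap-binding protein eIF4E3. TE is the number of ribosome footprints on a coding sequence (CDS) relative to the mRNA, and its change is the log2 fold change of the footprints less that of the mRNA, estimated from RNA-seq and Ribo-seq counts in 1 model. A transcript entered when its CPM, the count scaled to a library of standard size, exceeded 1 in all libraries of at least 1 condition in both assays, which 10432 of the 12759 transcripts in the tables did. A further 283 transcripts present in both tables of the ctrl cells did not pass. Of those that entered, 445 passed through 1 condition only. Of these 4 were called lower and 2 higher, which is no support for a change, since a transcript that passes only where it is high has to differ.

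The cells were Neuro-2a (N2a), a mouse neuroblastoma line. The ctrl cells, labelled WT, had received the empty Cas9 vector pSpCas9(BB)-Puro and puromycin, and the eIF4E3 KO cells the same vector with guides against Eif4e3. No cloning step is described for either. Cells were given 250 nM Torin1 in DMSO, or an equal volume of DMSO, for 2 h, and each replicate was a different passage, so that p-values rest on the spread between passages. For TE this spread was estimated jointly over the libraries of both assays. The ctrl cells had 3 DMSO and 3 Torin1 RNA-seq libraries, and 2 DMSO and 3 Torin1 Ribo-seq libraries (DMSO Ribo-seq replicate 2 was not analysed here). Libraries are given by assay, condition and replicate number, as in DMSO Ribo-seq 1.

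mTOR complex 1 couples nutrient and growth factor signals to protein synthesis. When it is active it phosphorylates the 4EBP proteins and so frees eIF4E to build the cap-binding eIF4F complex on mRNA, and it restrains LARP1, a protein that binds the start of certain messages. The mRNAs that depend most on mTOR are the TOP mRNAs, which begin with a C followed by a run of pyrimidines and encode ribosomal proteins and elongation factors.

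The RNA-seq libraries of ctrl cells held 17048586 to 25994278 counts on CDS. The Ribo-seq libraries were smaller, with 4529186 and 669392 footprints for DMSO replicates 1 and 3 and 1289263 to 2015619 for Torin1, so footprints were the less deeply sequenced side of each TE change. Of 19 neuroblastoma markers 18 were in the RNA-seq table, with a summed level of 4329 to 4703 CPM with DMSO and 4138 to 4286 CPM with Torin1 (here per library size, without TMM scaling), whereas the summed markers of glia, fibroblasts, immune, endothelial and epithelial cells reached at most 4.58 CPM for any of these types. Eif4e3 mRNA was at 18.0, 11.9 and 17.9 CPM with DMSO and 13.9, 17.0 and 12.4 CPM with Torin1, with no difference called (log2 -0.14, adjusted p = 0.676).

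Torin1 lowered the TE of many transcripts and raised that of few. Of the 10432 tested, 488 (4.68%) were called by edgeR's quasi-likelihood test at a Benjamini-Hochberg adjusted p of 0.05, 448 lower (4.29%) and 40 higher (0.383%). The median TE change was -1.30 on the log2 scale over those called lower and 0.89 over those called higher, against -0.01 over all tested. A decrease of more than 2-fold was seen for 333 of the 448, and of more than 4-fold for 60. Among the 448 were 94 of the 101 transcripts on the TOP lists, while 294 were on none of the 30 gene lists used here. The TOP lists are 4 lists of ribosomal proteins of the small and large subunit, elongation factors and other TOP mRNAs. Their members were listed by name, not by the bases at their start.

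The decreases came from the footprints rather than from the mRNA. Footprints themselves were called lower for 434 of the 448, beside 9.93% of all transcripts tested for footprints, and for 423 of these the mRNA was not called. The mRNA was called lower for 9 and higher for 4 of the 448, where 0.675% and 2.05% of all transcripts were. The footprint CPM of the 2 DMSO and 3 Torin1 libraries did not overlap for 446 of the 448, beside 43% of all transcripts tested, and a called transcript is nearly bound to show this. The median change over these 448 was -1.41 for footprints and -0.14 for mRNA, both on the log2 scale.

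**Figure D1:**
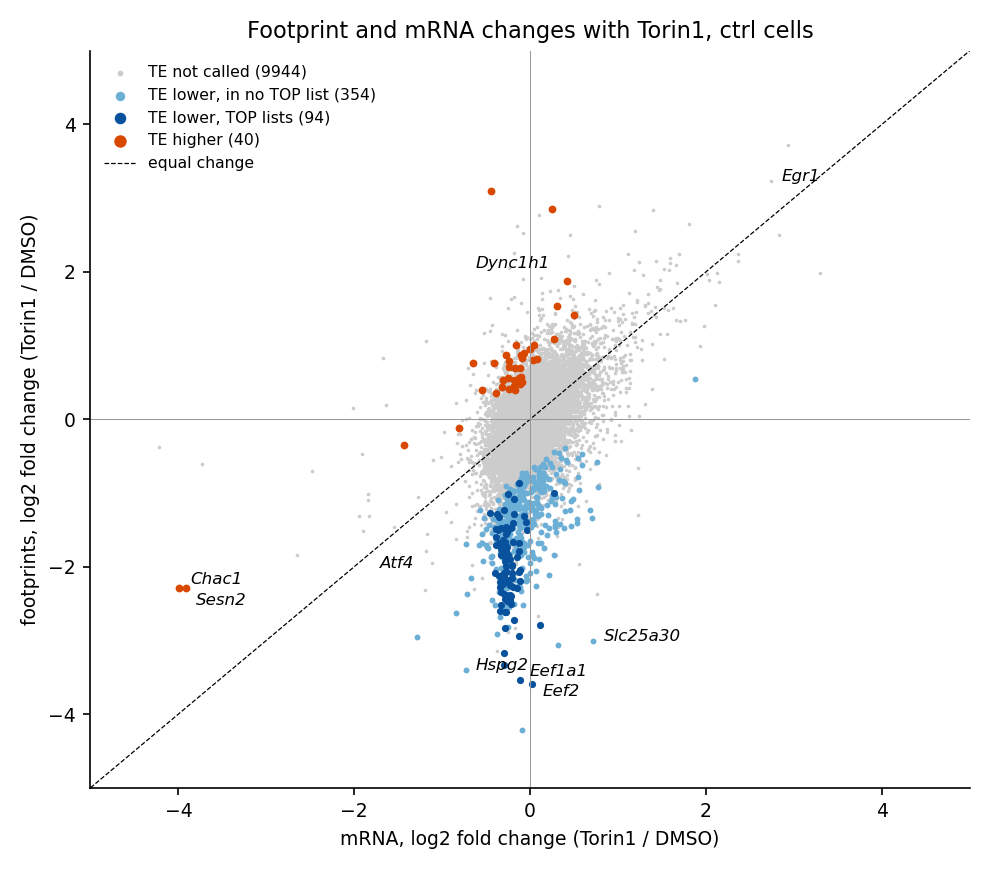
Log2 fold change of ribosome footprints (vertical axis) against that of mRNA (horizontal axis), Torin1 against DMSO in ctrl cells, 1 point for each of the 10432 transcripts, with colours for those whose TE was called. The transcripts with lower TE lie under the dashed line of equal change and near 0 on the mRNA axis, and 2 transcripts, Slc36a2 and Egr2, fall outside the axes.

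Each assay was scaled on its own, so lower and higher mean relative to the typical transcript. With library size as the only scaling, the median of all TE changes moved from -0.01 to 0.16, and 325 transcripts were called lower and 183 higher in place of 448 and 40. In bulk libraries, fewer cells of a kind and less RNA per cell cannot be told apart, and a change in the total number of translating ribosomes is not seen. The total of 488 became 316 without ctrl DMSO Ribo-seq replicate 1, 821 without ctrl DMSO RNA-seq replicate 2 and 854 when all 4 conditions shared 1 fit, and the 448 decreases became 284 without the former Ribo-seq library and 685 in the shared fit. The 40 increases were the less stable group. Their number was 8 to 20 without ctrl DMSO RNA-seq replicate 1, any 1 of the 3 Torin1 RNA-seq libraries, or Torin1 Ribo-seq replicate 2 or 3, it was 105 and 157 without DMSO RNA-seq replicates 3 and 2, and it was 73 by DESeq2 and 169 in the shared fit.

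The elongation factors, which carry tRNAs to the ribosome and move it along the mRNA, held 2 of the largest decreases. TE fell for 6 of the 7 tested, with a median of -1.87 on the log2 scale. Footprints on Eef2, which encodes the translocase of the ribosome, were at 3213 and 4016 CPM with DMSO and 336, 277 and 288 CPM with Torin1. Its mRNA was at 7272, 9010.1 and 7829 CPM with DMSO and 8695, 7504 and 8227 CPM with Torin1. The footprint values of the 2 conditions were far apart, while the mRNA values overlapped. The TE change of Eef2 was -3.61 (SE 0.198, adjusted p = 2.87e-10), which left 8.19% of the DMSO value.

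Eef1a1, the factor that delivers aminoacyl-tRNA, had footprints at 11740.2 and 10009 CPM with DMSO and 979.6, 946 and 895 CPM with Torin1 and mRNA at 8130.1, 9252 and 7089 CPM with DMSO and 7968, 7293 and 7275 CPM with Torin1. Its TE change was -3.41 (SE 0.187, adjusted p = 2.87e-10). Reads of Eef1a1 can be shared with processed copies in the genome, so its level is less certain than its change. Its paralogue Eef1a2, named with Eef1b2, Eef1g and Eef1d after their values were seen, changed less, by -1.10 (SE 0.201, adjusted p = 0.00125). The exchange factor subunits Eef1b2, Eef1g and Eef1d changed by -2.08, -1.87 and -0.76, respectively, and the call of Eef1d was lost without any 1 library other than DMSO RNA-seq 2 or 3 or DMSO Ribo-seq 3, adjusted p up to 0.18. Eif5a, which helps ribosomes through difficult peptide bonds, was the member not called. Its footprints were at 1599.6 and 1660.5 CPM with DMSO and 1758, 1815 and 1921 CPM with Torin1, and its TE change was 0.48 (SE 0.172, adjusted p = 0.133). The Torin1 libraries of Eif5a thus lay above the DMSO libraries, although of 20 alternatives the change passed the threshold only with library size scaling (0.65, adjusted p = 0.0110) and in the fit of all 4 conditions (adjusted p = 0.0284).

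All 32 proteins of the small ribosomal subunit had lower TE, with a median of -1.59 on the log2 scale. Of 48 proteins of the large subunit 45 had lower TE, with a median of -1.75. Footprints were called lower for all 80, and mRNA for 1. Depending on the alternative, 29 to 32 small subunit proteins were called. All 5 pseudogene symbols of ribosomal proteins in the table were also called lower, and reads of a parent gene and its copies cannot be told apart in these counts.

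Rps2, a small subunit protein near the mRNA entry channel, had footprints at 2250.0 and 1654 CPM with DMSO and 254, 247 and 265 CPM with Torin1 and mRNA at 270.0, 281 and 297 CPM with DMSO and 253, 271 and 254 CPM with Torin1. Its TE changed by -2.82 (SE 0.181, adjusted p = 3.74e-09). Its reads can be shared with copies in the genome, so its levels are less certain. Rps6, the substrate of S6 kinase that is widely used as a readout of mTOR activity, had footprints at 1367 and 1248 CPM with DMSO and 418, 371 and 390.3 CPM with Torin1 and a TE change of -1.47 (SE 0.194, adjusted p = 2.81e-05). In both the footprints of the conditions did not overlap and the mRNA was not called.

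Rpl27a led the large subunit, with footprints at 1332 and 1063 CPM with DMSO and 151, 126 and 123 CPM with Torin1 and a TE change of -2.88 (SE 0.199, adjusted p = 1.06e-08). Rplp2, which encodes a protein of the ribosomal stalk, followed with -2.56 (SE 0.19, adjusted p = 2.34e-08). The 3 members not called were Rpl38, Rpl36al and Rpl21, the last 2 named after their values were seen, with TE changes of -0.51, -0.51 and -0.63 and adjusted p of 0.206, 0.141 and 0.22. Rpl38, the best measured of them, had footprints at 1479 and 1347 CPM with DMSO and 927, 813 and 669 CPM with Torin1. These values did not overlap either, and the footprints were called lower with a change of -0.82 (SE 0.149, adjusted p = 0.000818). Its mRNA values, 467, 523 and 365 CPM with DMSO and 379, 357 and 357 CPM with Torin1, overlapped. The TE change of Rpl38 passed the threshold when 1 library was left out (without DMSO RNA-seq 2, adjusted p = 0.0454), as did that of Rpl36al (without DMSO RNA-seq 2, adjusted p = 0.0292).

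**Figure D2:**
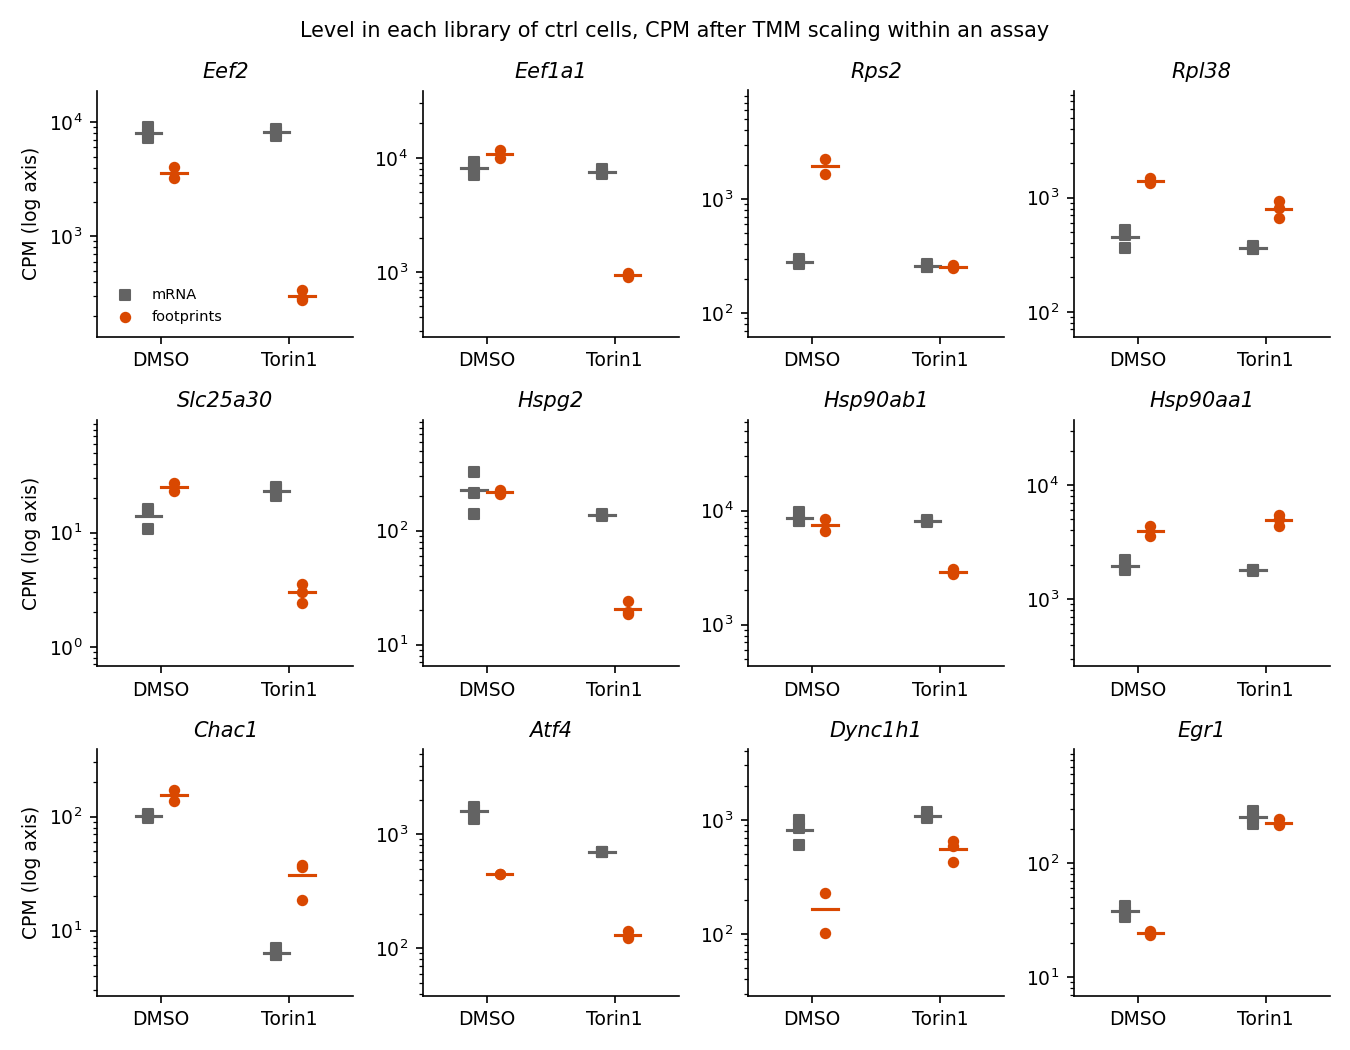
Levels of 12 transcripts in each library of ctrl cells, in CPM on a log axis, mRNA as squares and footprints as circles, with a bar at the mean. The footprints of Eef2, Eef1a1 and Rps2 dropped while no mRNA difference was called, those of Hsp90ab1 were lower and those of Hsp90aa1 higher in each Torin1 library, and the mRNA of Chac1 dropped further than its footprints.

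Together the 101 transcripts on the TOP lists took up 12.0 and 13.3% of all footprints with DMSO and 4.05 to 4.57% with Torin1. Their share of the mRNA counts was 10.8 to 13.5% with DMSO and 10.7 to 11.3% with Torin1. The footprint shares of the 2 conditions lay far apart, and the mRNA shares overlapped.

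Of the 14 other TOP mRNAs listed, 11 had lower TE, with a median of -1.41. Pabpc1, the cytoplasmic poly(A)-binding protein, had footprints at 367 and 533 CPM with DMSO and 64.5, 60.1 and 67.2 CPM with Torin1 and mRNA at 1759.8, 1613 and 1497 CPM with DMSO and 1819, 1715 and 1727 CPM with Torin1. Its TE change was -2.90 (SE 0.206, adjusted p = 1.15e-08), close to that of the strongest ribosomal proteins. Tpt1, a translationally controlled tumour protein, changed by -1.95 (SE 0.242, adjusted p = 1.47e-05), Rack1, a protein of the small subunit head, by -1.67 (SE 0.194, adjusted p = 6.74e-06), and Npm1, a nucleolar chaperone, by -1.47 (SE 0.218, adjusted p = 0.000122). Vim, an intermediate filament protein, changed by -1.66 (SE 0.172, adjusted p = 1.64e-06). Eif3e (named after its value was seen), Btf3 and Ybx1 were not called, with TE changes of -0.67, -0.47 and -0.43 and adjusted p of 0.0928, 0.172 and 0.24. Footprints were called lower for these 3 as well, while the TE threshold was passed by Btf3 without DMSO RNA-seq 2, adjusted p = 0.0377, and by Eif3e without DMSO RNA-seq 1, adjusted p = 0.0356.

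The bases around annotated RefSeq starts were read, and such a start need not be that of the counted transcript. The sequences are RefSeq starts on GRCm38.p6, read from 5 bases before the start over 25 bases, and are shown for strong TOP list members, for Rpl38 that was not called, and for transcripts outside the lists that fell or rose. Capitals mark a C followed by at least 4 further C or T, searched on the transcript strand within 5 bases of the start.
Eef2 (chr10:81176626-81176650, plus strand): cgggcgttgacgtcagcggtctctt
Eef1a1 (chr9:78481705-78481729, minus strand): CCCTCTTCCCgagggtgggggagaa
Rps2 (chr17:24720058-24720082, plus strand): gatctcgcgCTTCTTggagcactat
Rps6 (chr4:86857348-86857372, minus strand): cgggCCTCTTTTTCgtgacgcctcc
Rpl27a (chr7:109519190-109519214, plus strand): gCTCCTCCCTTTTCCCTTTCTgcca
Rpl38 (chr11:114668575-114668599, plus strand): tcgttCTTTCCCCgttctcttcggt
Atp5g2 (chr15:102671028-102671052, minus strand): cccgCCCCTCTCTgtcttctctgcc
Slc25a30 (chr14:75787018-75787042, minus strand): ccgttcccggcttgggccgcgcccg
Hspg2 (chr4:137468798-137468822, plus strand): tcggcaggacagcgagctggtggct
Chac1 (chr2:119351237-119351261, plus strand): ctgagggCCTTCCTggccggagggt
Ftl1 (chr7:45459867-45459891, minus strand): tCCCTCCggagggtcaacatgctat
Of 24 symbols looked up 19 had a RefSeq start; Pabpc1, Npm1, Hspa8, Hsp90ab1 and Hsp90aa1 did not. The run was present in Eef1a1, Rps2, Rps6, Rpl27a and Atp5g2, but also in Rpl38 and in Chac1 and Ftl1, whose TE rose. For Eef2, Slc25a30 and Hspg2 these letters are not in the window searched. The start read lay 45, 48, 56 and 80 bases from that of the counted transcript for Rps6, Rpl27a, Rpl38 and Atp5g2. It lay 13 bases away for Chac1, 2 for Ftl1 and 0 for the other members printed. Of the 8 further starts read and not printed, that of Qars held the run, while those of Tpt1 (a TOP list member), Eif4a2, Agrn, P4hb, Eif5a, Eif4a1 and Dync1h1 did not. The starts of Eif4a2, Dync1h1, Eif4a1, Tpt1 and Qars lay 24, 57, 106, 163 and 299 bases from that of the counted transcript.

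Across all transcripts, a pyrimidine run was found more often among those whose TE fell, which is given as a description with no test. Of 338 transcripts called lower with a RefSeq start, 29 (8.58%) had the run exactly at the start, compared with 3.13% of those called higher, 2.00% of those not called and 2.51% of all 32851 RefSeq starts. For the TOP lists the share was 21.7%, and for the decreases outside them 5.20%. A run beginning within 5 bases of the start was found in 33.4% of the decreases, 21.9% of the increases, 19.5% of the transcripts not called and 18.3% of all starts. Only 4778 of the 8326 starts matched lay within 20 bases of the start of the counted transcript, so these shares are descriptions of annotated starts.

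Transcripts with lower TE also had short 5′ leaders. The median leader was 118 nt over those called lower, 222 nt over those called higher and 176 nt over those not called. Decreases outside the TOP lists had a median of 123 nt, so short leaders were not confined to the TOP lists. When the transcripts were split into 5 bins of like size by leader length, 6.58% were called lower among leaders of 2 to 81 nt, then 5.67, 4.76 and 2.67%, and 1.69% among those of 341 to 4613 nt. Without the TOP lists the shares of the shortest and the longest bin were 5.19 and 1.26%. The median number of footprints per library, on which the calls depend, was 72 in the bin of the shortest leaders and 52.4 in that of the longest, and its part in these shares was not tested.

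The leaders of transcripts called lower were also richer in G and C, with a median of 69.2% against 65.0% for transcripts not called. This was seen outside the TOP lists (72.0%) and not in them (61.8%). An AUG upstream of the CDS was present in 35.1% of the decreases, 50.0% of the increases and 51.5% of transcripts not called. These shares count any AUG in the leader and were not adjusted for leader length, which differed between the groups. Outside the TOP lists the share called lower varied less with CDS length, from 2.47% in the bin of 5 with the shortest CDS to 4.08% in that with the longest. The shares called higher in these bins were 0.727% and 0.194%. Footprint numbers, on which the calls depend, were not compared between the CDS bins.

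**Figure D3:**
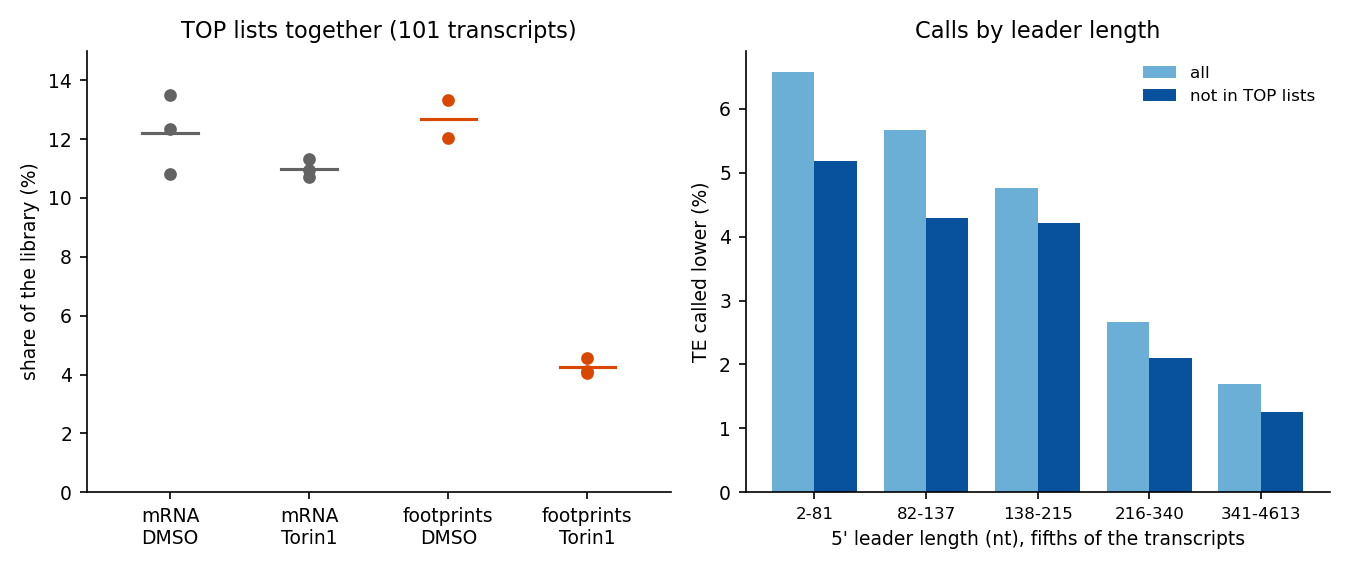
Left, share of each library (percent) taken by the 101 transcripts of the TOP lists, 1 point per library and a bar at the mean. Right, percent of transcripts called lower in TE in 5 bins of 5′ leader length in nt, for all transcripts and without the TOP lists, falling from 6.58 to 1.69% and from 5.19 to 1.26%.

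Among initiation factors the response was uneven, read beside the 4.29% of all transcripts called lower. All 14 subunits of eIF3, the scaffold that brings mRNA to the small subunit, had a TE change below 0, with a median of -0.56, but only Eif3f, Eif3h, Eif3i and Eif3l were called (the last 2 named after their values were seen). Eif3f had footprints at 315 and 181 CPM with DMSO and 63.8, 48.0 and 39.3 CPM with Torin1 and a TE change of -2.15 (SE 0.286, adjusted p = 3.13e-05). Eif3h, the next, changed by -1.56 (SE 0.177, adjusted p = 5.25e-06). Eif3b, a core subunit and the best measured one not called, had footprints at 881 and 977 CPM with DMSO and 754, 752 and 773 CPM with Torin1 and a TE change of -0.21 (SE 0.178, adjusted p = 0.623), with DMSO values only slightly above the Torin1 values.

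Of 15 members of eIF4F and its regulators 4 fell, beside 4.29% of all transcripts. They were Eif4a2, Eif4b, Eif4ebp1 and Mknk2 (the last named after its value was seen, with -1.43, and lost without Torin1 Ribo-seq 2, adjusted p = 0.0584). The helicase subunit of eIF4F is encoded by paralogues with different calls. Footprints on Eif4a2 were at 164 and 193 CPM with DMSO and 83.5, 73.2 and 67.8 CPM with Torin1, although its mRNA was higher with Torin1 at 125, 97.2 and 106 CPM with DMSO and 146, 153 and 153 CPM with Torin1, a difference not called (0.46 (SE 0.117, adjusted p = 0.0599)). Its TE changed by -1.70 (SE 0.201, adjusted p = 7.85e-06). Footprints on Eif4a1 were at 1243 and 1046 CPM with DMSO and 998, 1049.5 and 1026 CPM with Torin1, with overlapping conditions, and its TE change was -0.07 (SE 0.172, adjusted p = 0.89). The difference between the paralogues was not tested.

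Eif4b, a cofactor of the helicase, changed by -1.27 (SE 0.176, adjusted p = 5.04e-05). The cap-binding protein Eif4e itself was not called (0.33 (SE 0.19, adjusted p = 0.413)), nor were its repressor Eif4ebp2 (-0.76 (SE 0.374, adjusted p = 0.319)), Larp1 (-0.42 (SE 0.193, adjusted p = 0.282)) and Mtor (-0.43 (SE 0.235, adjusted p = 0.389)). Eif4ebp1, the repressor that mTOR phosphorylates, changed in mRNA by -0.57 (SE 0.107, adjusted p = 0.0154), in footprints by -1.23 (SE 0.153, adjusted p = 1.16e-05) and in TE by -0.66 (SE 0.188, adjusted p = 0.0487). Its TE call stood at the threshold and was lost under 13 of 20 alternatives, among them without any 1 library other than DMSO RNA-seq 2, DMSO Ribo-seq 3 or Torin1 Ribo-seq 1, adjusted p up to 0.255. Of the 16 eIF1, eIF2, eIF2B, eIF5 and eIF6 genes, Eif1b (0.96 (SE 0.275, adjusted p = 0.0499)) and Eif2s3x (-0.76 (SE 0.218, adjusted p = 0.0499)) were called, beside 4.68% of all transcripts. Each call was lost under 12 of 20 alternatives. For Eif1b these included the fit without any 1 library other than DMSO RNA-seq 2 or 3, adjusted p up to 0.13, and for Eif2s3x that without any 1 library other than DMSO RNA-seq 1, 2 or 3, adjusted p up to 0.143.

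**Figure D4:**
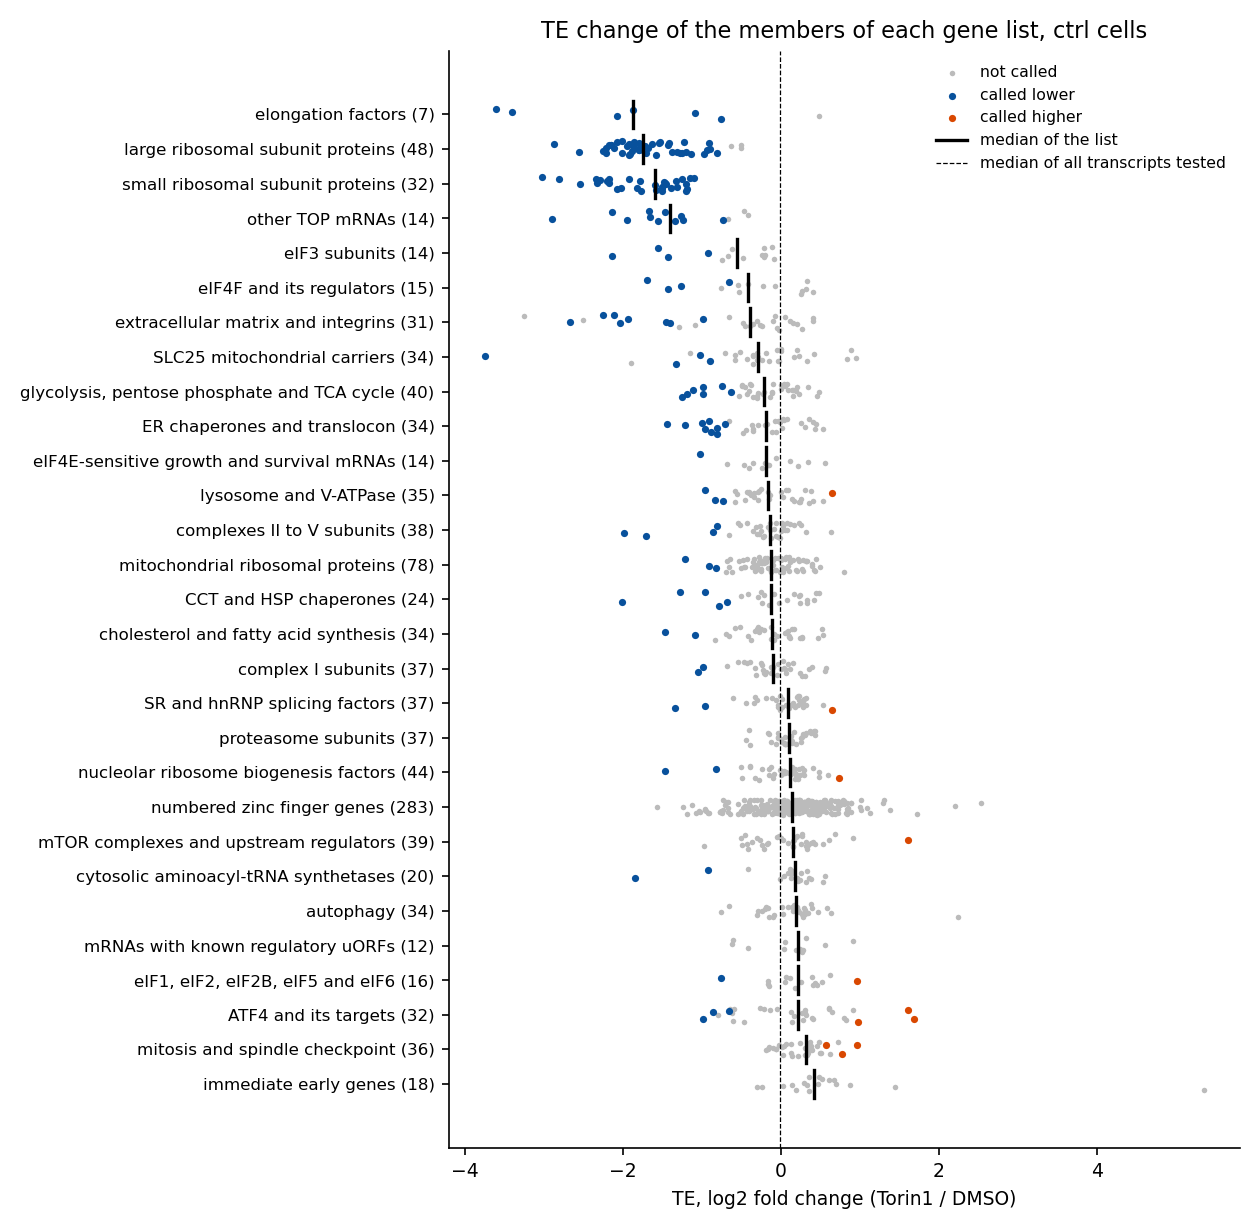
TE change (log2 fold change, Torin1 against DMSO, ctrl cells) of each member of 29 gene lists, with the number tested in brackets, coloured where called and with a bar at the median. The ribosomal proteins, elongation factors and other TOP mRNAs lie almost wholly under 0, while most other lists centre near the dashed median of all transcripts.

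Outside the TOP lists, 354 transcripts had lower TE, with a median of -1.21. Slc25a30, a mitochondrial carrier, was the largest decrease once transcripts with 3 or fewer footprints in every library of a condition were set aside. Its footprints were at 23.3 and 27.1 CPM with DMSO and 3.04, 2.42 and 3.57 CPM with Torin1 and its mRNA at 16.2, 10.8 and 15.4 CPM with DMSO and 25.0, 20.8 and 24.0 CPM with Torin1, so that footprints dropped while the mRNA rose by 0.72 (SE 0.172, adjusted p = 0.0497). The TE change was -3.75 (SE 0.397, adjusted p = 2.15e-06). The Torin1 footprints of Slc25a30 were few, only slightly above the limit of 3, so the size of its change is uncertain. Papln, Igdcc4 and Slc36a2 (the last named after its value was seen) were also called lower with 3 or fewer footprints in every Torin1 library, where the size of the change cannot be given. All of them passed the filter through the DMSO libraries only, so their calls are no support for a change. Papln was lost without Torin1 Ribo-seq 2, adjusted p = 0.0681, Slc36a2 without Torin1 Ribo-seq 2, adjusted p = 0.0622 and Igdcc4 without DMSO Ribo-seq 1 or Torin1 Ribo-seq 2, adjusted p up to 0.1. Of the 34 SLC25 carriers 4 were called lower, beside 4.29% of all transcripts. Among them were the ADP/ATP carrier Slc25a4 with -1.33 (SE 0.169, adjusted p = 2.04e-05), and, named after their values were seen, Slc25a5 and Slc25a3 with -1.02 and -0.90.

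The extracellular matrix and integrin list had 8 of 31 members called lower, beside 4.29% of all transcripts, and a median of -0.39. Of the 31, 5 passed the filter through 1 condition only. Hspg2, which encodes the basement membrane proteoglycan perlecan, had footprints at 208 and 227 CPM with DMSO and 24.3, 19.4 and 18.4 CPM with Torin1 and mRNA at 141, 212 and 327 CPM with DMSO and 134, 138 and 137 CPM with Torin1. The DMSO mRNA values were widely spread, and the mRNA difference was not called. TE of Hspg2 changed by -2.67 (SE 0.342, adjusted p = 2.09e-05). Agrn, the proteoglycan agrin, had footprints at 177 and 219 CPM with DMSO and 39.5, 33.5 and 27.4 CPM with Torin1 and a TE change of -2.25 (SE 0.268, adjusted p = 8.06e-06). The integrin Itgb1 was not called, with footprints at 1254 and 1284 CPM with DMSO and 1476, 1873 and 1686 CPM with Torin1 and a TE change of 0.27 (SE 0.175, adjusted p = 0.489). The other 6 called were the collagens Col4a1 and Col4a2, the laminins Lama5 and Lamc1 and the fibulins Fbln1 and Fbln2, named after their values were seen, with TE changes of -0.99 to -2.12, of which Lamc1 was lost without DMSO Ribo-seq 3, adjusted p = 0.0528.

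Secretory pathway messages moved in part. Of 34 ER chaperones and translocon components 9 had lower TE, beside 4.29% of all transcripts, with a median of -0.19. P4hb, a protein disulfide isomerase, had footprints at 1221 and 1153 CPM with DMSO and 469, 437 and 409 CPM with Torin1 and a TE change of -1.44 (SE 0.169, adjusted p = 7.38e-06). Sec61a1, the pore of the translocon, changed by -1.21 (SE 0.18, adjusted p = 0.000117). The lectin chaperone Calr was not called, with footprints at 2645 and 3221 CPM with DMSO and 2945, 2919 and 3183 CPM with Torin1 and a TE change of 0.25 (SE 0.176, adjusted p = 0.532).

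Cytosolic chaperones likewise held called and uncalled members. Hspa8, the constitutive HSP70, had footprints at 5819 and 6335 CPM with DMSO and 1355, 1365 and 1293 CPM with Torin1 and a TE change of -2.01 (SE 0.19, adjusted p = 6.03e-07). The HSP90 paralogue Hsp90ab1 had footprints at 6568 and 8450.0 CPM with DMSO and 2819, 2795 and 3065 CPM with Torin1, whereas the stress-inducible Hsp90aa1 had 3601 and 4349 CPM with DMSO and 4417, 5041 and 5439.9 CPM with Torin1. Hsp90ab1 was thus lower in every Torin1 library and Hsp90aa1 higher in each. Their TE changes were -1.28 (SE 0.185, adjusted p = 9.24e-05) and 0.44 (SE 0.187, adjusted p = 0.226), and the difference between them was not tested. Over the 24 CCT and HSP chaperones 5 were called lower, beside 4.29% of all transcripts, and the median was -0.12. The other 3 called (Cct2, Cct4 and Dnaja2, named after their values were seen) changed by -0.68 to -0.96. The call of Dnaja2 was lost without any 1 library other than DMSO RNA-seq 1, 2 or 3 or Torin1 Ribo-seq 3, adjusted p up to 0.104.

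Energy metabolism lists are read beside the 4.29% of all transcripts called lower. Of 40 genes of glycolysis, the pentose phosphate pathway and the TCA cycle 7 had lower TE, with a median of -0.22, among them the transketolase Tkt (-1.19 (SE 0.199, adjusted p = 0.00048)). Gapdh also fell (-1.11 (SE 0.189, adjusted p = 0.000549)), but its mRNA level of 50.9, 71.4 and 59.9 CPM with DMSO and 51.4, 51.9 and 55.0 CPM with Torin1 lay far under its footprints of 1754 and 1761 CPM with DMSO and 784, 656 and 680.0 CPM with Torin1, and its reads can be shared with copies in the genome. Pkm, the muscle and tumour pyruvate kinase, was not called (-0.30 (SE 0.182, adjusted p = 0.448)). In respiratory complexes II to V 4 of 38 were lower, with Atp5g2, a ring subunit of the ATP synthase, at 558 and 324 CPM with DMSO and 104, 86.8 and 78.5 CPM with Torin1 in footprints and -1.99 (SE 0.258, adjusted p = 2.29e-05) in TE, and Cox7a2l at -1.71 (SE 0.277, adjusted p = 0.000331), a call lost without DMSO Ribo-seq 1, adjusted p = 0.0891. The other 2 were Atp5c1 and Atp5d, named after their values were seen, with -0.81 and -0.87, lost without DMSO Ribo-seq 1 or Torin1 Ribo-seq 2, adjusted p up to 0.0631, and without DMSO RNA-seq 1, DMSO Ribo-seq 1, Torin1 RNA-seq 1 or 3 or Torin1 Ribo-seq 2 or 3, adjusted p up to 0.327, respectively. Complex I had 2 of 37 lower, a share near that of all transcripts. These were Ndufb5 (-1.06 (SE 0.232, adjusted p = 0.00706)) and Ndufa6 (-0.99 (SE 0.247, adjusted p = 0.0189)). The call of Ndufb5 was lost without DMSO Ribo-seq 1, adjusted p = 0.226, and that of Ndufa6 without DMSO Ribo-seq 1, Torin1 RNA-seq 1 or Torin1 Ribo-seq 2 or 3, adjusted p up to 0.364. Footprints were called lower for 17 of the 37 in complex I and 18 of the 38 in complexes II to V, beside 9.93% of all transcripts. The median mRNA changes were -0.35 and -0.30, respectively. In KO cells TE was called lower for 21 of 37 and 18 of 38, beside 17.8% of all transcripts.

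Mitochondrial ribosomal proteins, which make the ribosome of the organelle, are not TOP mRNAs. Of 78 members 3 had lower TE, beside 4.29% of all transcripts, and the median was -0.13. They were Mrpl9 (-0.91 (SE 0.195, adjusted p = 0.00575)), Mrpl30 (-1.21 (SE 0.294, adjusted p = 0.0161)) and Mrpl38 (named after its value was seen, -0.82). The call of Mrpl30 was lost without DMSO Ribo-seq 1 or Torin1 Ribo-seq 3, adjusted p up to 0.311, and that of Mrpl38 without DMSO Ribo-seq 1, Torin1 RNA-seq 1 or Torin1 Ribo-seq 2 or 3, adjusted p up to 0.165. Footprints were called lower for 25 of the 78, beside 9.93% of all transcripts, and the median mRNA change was -0.29. In KO cells TE was called lower for 31 of 78, beside 17.8% of all transcripts. The medians of mitochondrial ribosomal proteins, complex I, complexes II to V, CCT and HSP chaperones, cholesterol synthesis and lysosome genes turned positive with library size scaling, so their sign depends on the scaling.

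In 2 large groups of tRNA and RNA-binding factors single members stood out, read beside the 4.29% of all transcripts called lower and 0.383% called higher. Of 20 cytosolic aminoacyl-tRNA synthetases, with a median TE change of 0.17, 2 were lower. Qars, the glutaminyl-tRNA synthetase, had footprints at 110.2 and 102 CPM with DMSO and 31.1, 23.8 and 33.9 CPM with Torin1, without overlap, and a TE change of -1.85 (SE 0.217, adjusted p = 7.34e-06). Vars, the valyl-tRNA synthetase, changed by -0.93 (SE 0.219, adjusted p = 0.0128), a call lost without DMSO Ribo-seq 3 or Torin1 Ribo-seq 2, adjusted p up to 0.0817. Eprs, a synthetase with upstream reading frames in its leader, was not called (0.04 (SE 0.192, adjusted p = 0.955)). Of 37 SR and hnRNP splicing factors, Hnrnpa1, which is also on a TOP list, changed by -1.35 (SE 0.203, adjusted p = 0.000149) and Pcbp2 by -0.96 (SE 0.176, adjusted p = 0.00131), while Hnrnpc (named after its value was seen) changed by 0.64 (SE 0.182, adjusted p = 0.0456), a call lost without any 1 library other than DMSO RNA-seq 2 or 3, DMSO Ribo-seq 3 or Torin1 Ribo-seq 1, adjusted p up to 0.229.

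The increases in TE were fewer and of several kinds. Footprints rose for 30 of the 40 with no mRNA call, beside 5.69% of all transcripts called higher for footprints. For 4 the mRNA fell, and for 2 of those, Chac1 and Sesn2, footprints fell as well but by less than the mRNA. Chac1, a glutathione-degrading enzyme and target of the transcription factor ATF4, had mRNA at 97.0, 102 and 106 CPM with DMSO and 6.07, 6.97 and 6.17 CPM with Torin1 and footprints at 138 and 171 CPM with DMSO and 36.4, 37.3 and 18.4 CPM with Torin1. Both were lower in every Torin1 library, with a change of -3.99 (SE 0.137, adjusted p = 2.63e-08) for the mRNA and -2.29 (SE 0.223, adjusted p = 5.38e-07) for the footprints. Its TE change was 1.69 (SE 0.283, adjusted p = 0.000481), and the call was kept under all 20 alternatives.

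Sesn2, an inhibitor of mTOR complex 1 that senses leucine, had mRNA at 54.3, 50.2 and 71.0 CPM with DMSO and 3.71, 4.1 and 3.84 CPM with Torin1 and footprints at 33.9 and 30.5 CPM with DMSO and 5.32, 7.76 and 6.54 CPM with Torin1. The mRNA again dropped further than the footprints, which gave a TE change of 1.61 (SE 0.353, adjusted p = 0.00691). This call was lost without Torin1 Ribo-seq 2, adjusted p = 0.08. Nfil3, a transcription factor, had an mRNA change of -1.43 (SE 0.147, adjusted p = 0.000179) with footprints not called (-0.35, adjusted p = 0.457), and its TE change was 1.09 (SE 0.306, adjusted p = 0.045), lost without any 1 library other than DMSO RNA-seq 2 or 3, DMSO Ribo-seq 3 or Torin1 Ribo-seq 3, adjusted p up to 0.383.

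Ftl1, the light chain of the iron store ferritin, had footprints at 124 and 112 CPM with DMSO and 241, 229 and 189.8 CPM with Torin1 and mRNA at 1696, 2053 and 1459 CPM with DMSO and 1439, 1378 and 1497 CPM with Torin1. Footprints were higher in each Torin1 library, the mRNA was not called, and TE rose by 1.15 (SE 0.212, adjusted p = 0.00134), also under all 20 alternatives. The copy Ftl1-ps1 showed 1.04 (SE 0.213, adjusted p = 0.00396), and reads of the pair cannot be told apart. Dync1h1, the heavy chain of cytoplasmic dynein, had footprints at 102 and 231 CPM with DMSO and 425, 595 and 651 CPM with Torin1 and a TE change of 1.46 (SE 0.335, adjusted p = 0.0104). Its DMSO libraries differed from one another, and without DMSO Ribo-seq 1 the change was 0.85 (adjusted p = 0.200), while DESeq2 gave an adjusted p of 0.0604.

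Gata3, a transcription factor of the sympathetic lineage, had footprints at 12.0 and 18.7 CPM with DMSO and 27.3, 21.8 and 20.2 CPM with Torin1. Its mRNA was at 9.70, 9.45 and 8.59 CPM with DMSO and 5.71, 6.75 and 5.24 CPM with Torin1. Footprints were thus higher and mRNA lower in each Torin1 library, and the TE change was 1.40 (SE 0.342, adjusted p = 0.0163). Gata3 was not called without DMSO Ribo-seq 1 or Torin1 RNA-seq 3, adjusted p up to 0.355. Caprin2, Ndufaf1 and Dnajc24 made up the rest of the 10 largest increases, with TE changes of 1.23, 1.18 and 1.17 and adjusted p of 0.0396, 0.0211 and 0.0477. Caprin2 was lost without any 1 library other than DMSO RNA-seq 2 or 3 or Torin1 Ribo-seq 2, adjusted p up to 0.132. Ndufaf1 was lost without any 1 library other than DMSO RNA-seq 2 or 3, Torin1 RNA-seq 2 or Torin1 Ribo-seq 2, adjusted p up to 0.113, and Dnajc24 without any 1 library other than DMSO RNA-seq 2 or 3 or Torin1 Ribo-seq 1, adjusted p up to 0.247.

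Mitosis and spindle checkpoint genes leaned upward, with 29 of 36 TE changes above 0, a median of 0.32 against -0.01 for all transcripts, and 3 called higher where 0.383% of all transcripts were. These were the kinetochore proteins Spc25 (0.96 (SE 0.245, adjusted p = 0.0236)) and Nuf2 (0.77 (SE 0.21, adjusted p = 0.0354)) and the cyclin Ccnb1 (named after its value was seen, 0.57 (SE 0.164, adjusted p = 0.0486)). Spc25 footprints were at 39.2 and 45.8 CPM with DMSO and 75.2, 74.2 and 75.0 CPM with Torin1, without overlap. Between 0 and 5 members were called depending on the alternative, and Spc25 was lost without DMSO RNA-seq 1, DMSO Ribo-seq 1, Torin1 RNA-seq 1 or 3 or Torin1 Ribo-seq 2 or 3, adjusted p up to 0.25. Nuf2 was lost without any 1 library other than DMSO RNA-seq 2 or 3, DMSO Ribo-seq 1 or Torin1 Ribo-seq 1, adjusted p up to 0.128, and Ccnb1 without any 1 library other than DMSO RNA-seq 2 or 3 or DMSO Ribo-seq 1, adjusted p up to 0.148. Top2a, the best measured member not called, had a TE change of -0.06 (SE 0.217, adjusted p = 0.934).

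Torin1 also changed mRNA levels. The mRNA was called for 299 of 10958 transcripts (2.73%), 74 lower and 225 higher. Of the 216 called higher that were tested for TE, 4 had lower and 0 higher TE, and their median TE change was -0.06. Of the 72 called lower, 9 had lower and 4 higher TE, beside 4.29% and 0.383% of all transcripts, with a median of 0.20. The mRNA enters the TE change, so the 2 measures are not independent. Immediate early genes, which respond to signals before new protein is made, had 10 of 18 mRNAs called higher. They had 0 TE calls by edgeR, DESeq2 or limma-voom. By edgeR 1 member was at an unadjusted p under 0.05, beside 1707 of all 10432 transcripts. Their median TE change was nonetheless 0.41, with 2 of 18 below 0, and in KO cells 7 of 17 were called higher in TE, beside 10.6% of all transcripts, with a median of 0.63. Of the 18, 3 passed the filter through 1 condition only, so their values are no support for a change. Egr1, a zinc finger factor of this class, had mRNA at 33.3, 37.1 and 42.3 CPM with DMSO and 219.6, 288 and 248 CPM with Torin1 and footprints at 23.6 and 25.4 CPM with DMSO and 241, 219 and 217 CPM with Torin1. Both rose in every Torin1 library, the mRNA by 2.74 (SE 0.139, adjusted p = 4.53e-07), and the TE change was 0.48 (SE 0.235, adjusted p = 0.313). Mycn, the oncogene of neuroblastoma, had mRNA at 27.1, 21.3 and 23.6 CPM with DMSO and 64.7, 63.8 and 57.9 CPM with Torin1 and footprints at 30.9 and 23.7 CPM with DMSO and 67.6, 83.4 and 90.4 CPM with Torin1, with a TE change of 0.11 (SE 0.255, adjusted p = 0.889). The count of 299 depended on the libraries, with 1477 without ctrl DMSO RNA-seq replicate 3, 113 to 146 without DMSO RNA-seq replicate 1 or any 1 Torin1 RNA-seq library, and 723 by DESeq2. The count of 1670 for footprints was 718 to 846 without DMSO Ribo-seq replicate 1 or Torin1 Ribo-seq replicate 2 or 3, and 958 by DESeq2.

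ATF4 and its targets serve amino acid supply and the stress response. Of 32 members 11 had lower mRNA (beside 0.675% of all transcripts) and 14 lower footprints (beside 9.93%). TE was lower for 3 (beside 4.29%) and higher for 3 (beside 0.383%), with a median of 0.22. Atf4 mRNA was at 1645, 1742 and 1366 CPM with DMSO and 696, 705 and 693 CPM with Torin1 and its footprints at 451 and 451 CPM with DMSO and 141, 129 and 122 CPM with Torin1. Neither overlapped between conditions, and the mRNA changed by -1.18 (SE 0.12, adjusted p = 0.000169) and the footprints by -1.79 (SE 0.141, adjusted p = 3.1e-08). The TE change of Atf4 was -0.61 (SE 0.18, adjusted p = 0.0572), short of the threshold, and passed it in the fit without DMSO RNA-seq 2, adjusted p = 0.0109, by DESeq2 (adjusted p = 0.0347) and in the fit of all 4 conditions (adjusted p = 0.00941). The pseudokinase Trib3 had an mRNA change of -2.66 (SE 0.131, adjusted p = 4.53e-07) and a TE change of 0.82 (SE 0.236, adjusted p = 0.0503), passing under 8 of 20 alternatives, among them the fits without DMSO RNA-seq 2, DMSO Ribo-seq 1 or Torin1 Ribo-seq 1, adjusted p down to 0.0432. Asns, which makes asparagine, was not called in mRNA or TE (0.16 (SE 0.182, adjusted p = 0.716)). The 6 TE calls were Chac1, Sesn2 and, named after its value was seen, the hormone Stc2 (0.97) as increases, and Mthfd2 (-0.86 (SE 0.166, adjusted p = 0.00206)), Eif4ebp1 and the amino acid transporter Slc7a5 (named likewise, -0.99) as decreases. Stc2 was lost without DMSO Ribo-seq 3, Torin1 RNA-seq 1, 2 or 3 or Torin1 Ribo-seq 1, adjusted p up to 0.0774.

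Of 14 growth and survival mRNAs often described as sensitive to eIF4E, 1 was called in TE, beside 4.68% of all transcripts, and the median was -0.19. Odc1, the first enzyme of polyamine synthesis, had footprints at 195 and 156 CPM with DMSO and 84.3, 77.1 and 61.9 CPM with Torin1 and a TE change of -1.02 (SE 0.196, adjusted p = 0.00204), lost without DMSO Ribo-seq 1, adjusted p = 0.0694. Ccnd1, the G1 cyclin, had footprints at 265 and 234 CPM with DMSO and 137, 172 and 169 CPM with Torin1, without overlap, but its TE change of -0.47 (SE 0.197, adjusted p = 0.227) was not called. The interval of that change (95%) ran from -0.85 to -0.08. Mcl1, a survival factor, changed by -0.69 (SE 0.203, adjusted p = 0.0561) and was called under 5 of 20 alternatives, among them those without DMSO RNA-seq 2 or 3 or Torin1 Ribo-seq 3, adjusted p down to 0.0397.

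Several lists had 0 TE calls by edgeR in either direction. Over all transcripts 4.68% were called, and 1707 of 10432 were at an unadjusted p under 0.05. With so few members, 0 calls does not set the shorter lists apart. The 37 proteasome subunits had a median of 0.10, with 3 members at an unadjusted p under 0.05 (1 lower and 2 higher) and 0 calls by DESeq2 or limma-voom. The 34 autophagy genes had a median of 0.18, with 3 at that unadjusted p, all higher, and likewise 0 calls by the other tools. The 12 mRNAs with known regulatory upstream reading frames had a median of 0.21, with 2 lower and 1 higher unadjusted, 1 call by DESeq2 and 0 by limma-voom. The 283 numbered zinc finger genes had a median of 0.14, with 3 lower and 10 higher unadjusted, 0 calls by DESeq2 and 1 by limma-voom. Of these 283, 31 passed the filter through 1 condition only. Of 39 mTOR complex members and upstream regulators Sesn2 alone was called, and the activator Rheb had a TE change of 0.53 (SE 0.197, adjusted p = 0.158).

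Replication-dependent histones, 5 of which were in the tables, did not pass the filter. Of 44 nucleolar factors 2 were lower and 1 higher, beside 4.29% and 0.383% of all transcripts. Ddx21 was lower beside Npm1 (-0.82 (SE 0.211, adjusted p = 0.0236)), Gnl3 was higher (named after its value was seen, 0.74 (SE 0.189, adjusted p = 0.0237)) and Ncl was not called (-0.11 (SE 0.265, adjusted p = 0.895)). The call of Ddx21 was lost without DMSO Ribo-seq 3, Torin1 RNA-seq 1 or 3 or Torin1 Ribo-seq 1 or 2, adjusted p up to 0.17, and that of Gnl3 without DMSO RNA-seq 1, DMSO Ribo-seq 1 or 3, Torin1 RNA-seq 1 or 3 or Torin1 Ribo-seq 3, adjusted p up to 0.109. Lysosomal genes had 3 lower and 1 higher of 35, with Hexa at -0.96 (SE 0.206, adjusted p = 0.00576) and Lamp1 at -0.73 (SE 0.18, adjusted p = 0.017), lost without DMSO Ribo-seq 1, adjusted p = 0.175, and without DMSO Ribo-seq 1, Torin1 RNA-seq 1 or Torin1 Ribo-seq 3, adjusted p up to 0.169, respectively. The other 2, named after their values were seen, were Mcoln1 (-0.84), lost without any 1 library other than DMSO RNA-seq 2 or DMSO Ribo-seq 3, adjusted p up to 0.35, and Atp6v1e1 (0.65), lost without DMSO Ribo-seq 1, Torin1 RNA-seq 1, 2 or 3 or Torin1 Ribo-seq 2, adjusted p up to 0.105. Cholesterol and fatty acid synthesis had 2 of 34 lower, also near the share of all transcripts, among them the sterol sensor Scap (-1.47 (SE 0.235, adjusted p = 0.000284)), and Scd2 was not called (0.05 (SE 0.238, adjusted p = 0.954)). Footprints were called lower for 7 of these 34, beside 9.93% of all transcripts. In KO cells TE was called lower for 15 of 34, beside 17.8%.

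The same contrast was set beside that in the eIF4E3 KO cells, which share no library with the ctrl cells. In KO cells 2990 of 10535 transcripts (28.4%) were called, 1871 lower (17.8%) and 1119 higher (10.6%), with 3 DMSO Ribo-seq libraries of 2715662 to 5288846 footprints in place of 2, so the numbers of calls cannot be compared directly. Of the 448 transcripts with lower TE in ctrl cells, 447 had a change below 0 in KO cells and 434 were called lower there. All 39 of the increases that were tested in KO cells had a change above 0, and 33 were called. Pearson's r of the changes across transcripts, which are not independent replicates, was 0.685 over 10337, 0.959 over the 101 of the TOP lists and 0.824 over the other 393 called in ctrl cells.

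The test of the difference between KO and ctrl cells called 0 of 10443 transcripts by edgeR, with 599 at an unadjusted p under 0.05, and DESeq2 called 16. The TOP lists had a median of -1.66 in ctrl and -1.99 in KO cells. For Eef2 the KO value was -3.72 and the difference, KO less ctrl, was -0.08 (SE 0.222, adjusted p = 0.983). Hspg2 was at -3.61 in KO cells, a difference of -0.91 (SE 0.474, adjusted p = 0.859), and Slc25a30 at -2.39, a difference of 1.38 (SE 0.55, adjusted p = 0.787). Chac1 was at 2.46, a difference of 0.79 (SE 0.471, adjusted p = 0.905). None of these differences passed the threshold, which does not show that the responses were equal.

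**Figure D5:**
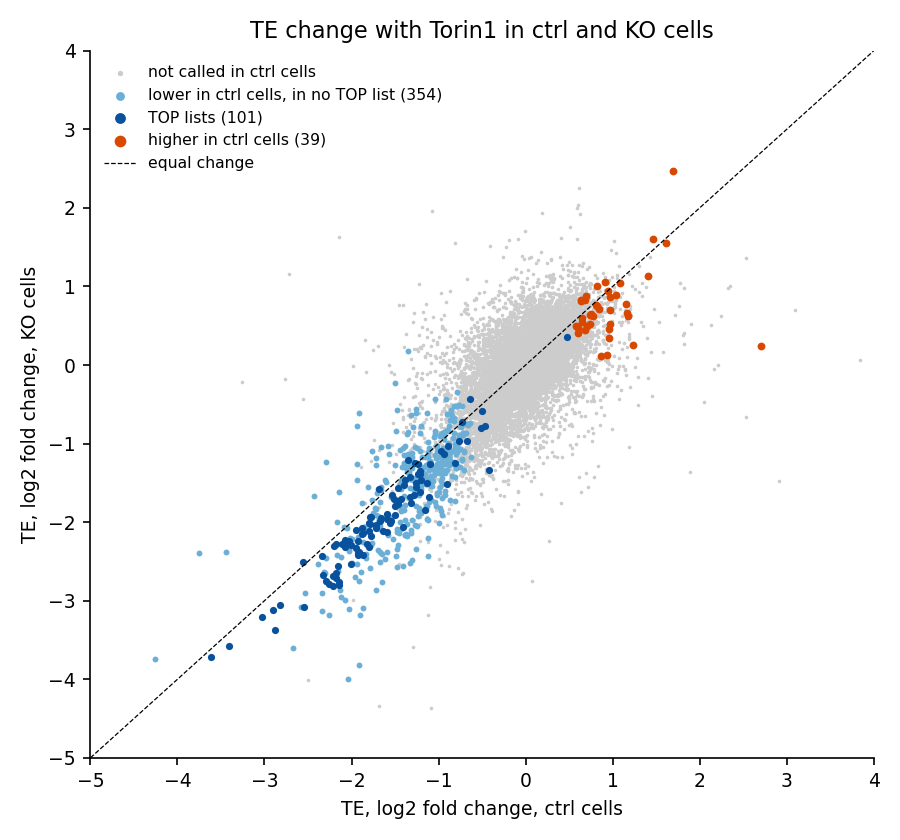
TE change with Torin1 in KO cells (vertical axis, log2) against that in ctrl cells (horizontal axis, log2), 1 point per transcript tested in both. Those called in ctrl cells are coloured, as are all members of the TOP lists, called or not. The called transcripts lie along the dashed line of equal change on both sides of 0, and 3 transcripts fall outside the axes.

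Calls were more frequent among transcripts with more footprints. The median standard error of a TE change was 0.635 on the log2 scale for 899 transcripts with a mean of under 10 footprints per library, and 0.196 for 1425 transcripts with 300 or more. The shares called were 0.779% and 14.1%, and the smallest change called was 1.91 in the former and 0.57 in the latter. Smaller changes of thinly covered transcripts were not detectable at this depth. Pecam1 and Stradb (named after their values were seen) were called higher with at most 3 footprints in every DMSO library, and the size of their change cannot be given. Both passed the filter through the Torin1 libraries only, so their calls are no support for a change. Pecam1 was lost without DMSO Ribo-seq 1 or 3, Torin1 RNA-seq 1 or 2 or Torin1 Ribo-seq 2 or 3, adjusted p up to 0.266, and Stradb without any 1 library other than DMSO RNA-seq 2 or 3 or Torin1 RNA-seq 2, adjusted p up to 0.374.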

How the data were processed

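The authors deposited counts per CDS of canonical Ensembl transcripts on mm10 (GRCm38). By their methods, adaptors were removed with cutadapt, reads were mapped with HISAT2 and then bowtie2 after rRNA, tRNA and pseudogene reads were discarded, and Ribo-seq counts are P-sites placed by riboWaltz. RNA-seq counts any read on the CDS (TruSeq Stranded mRNA kit). Cycloheximide was added before lysis. RiboDiff, the tool of the study for TE, was not run.

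From these counts, TE was tested in edgeR 4.0.16 (R 4.3.3) as the interaction of assay and treatment, with TMM factors within each assay and Benjamini-Hochberg adjustment over all transcripts tested at a threshold of 0.05. Footprints and mRNA were tested likewise, on 10693 and 10958 transcripts. CPM values are after TMM scaling, other than the summed markers and the CPM filter, which use library size. SE is the standard error of a log2 fold change, taken as the change over the square root of F. Members and lists were chosen with earlier results of these data known. Lists are described by counts and medians, with no set test. Named were the 10 largest called decreases and increases with a mean of at least 10 footprints and no overlap, up to 2 called members and the best measured uncalled member of each list, the 5 mRNAs most clearly called in each direction, and genes fixed by name; any other is said to be named after its value was seen. A few of these are not reported here. Leaders and CDS came from GENCODE M21, of which 10393 transcripts had a complete leader.

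Replicates of a group correlated at 0.955 to 0.997 across transcripts, and none were identical. All per-sample columns read belong to samples of the series, and 0 were left unused. The tables of KO against ctrl cells were not used. The scripts were tested on simulated counts with known changes. The alternatives were DESeq2 1.42.0, limma 3.58.1 (voom), other scalings and filters, a replicate block, and leaving out each library.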

Additional observations from a re-analysis of the deposited data

How the results depend on the processing

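Of the 448 decreases and 40 increases in TE, 302 and 9 were called under all alternatives that keep every library, 234 and 3 with each library left out, and 233 and 3 under all, among them 82 of the 94 TOP list members. The 3 increases were Chac1, whose footprints fell by less than its mRNA, Ftl1 and its copy Ftl1-ps1. Reads of the last 2 cannot be told apart. No call turned direction under any of the 20 alternatives. The total of 488 was 316 to 821 with 1 library left out and 854 with all 4 conditions in 1 fit. The decreases numbered 284 to 664 and 685, and the increases 8 to 157 and 169. The increases were 183 with library size scaling and 73 by DESeq2. Footprint calls (1670) were 718 to 2291 with 1 library left out and 958 by DESeq2, and mRNA calls (299) were 113 to 1477 and 723. The KO count of 2990 ranged from 2481 to 3513, and the difference between KO and ctrl cells, with 0 calls, gave 16 by DESeq2. Why these counts moved was not tested. A pyrimidine run within 5 bases of the start raised its share from 8.58 to 33.4% for decreases, from 3.13 to 21.9% for increases and from 2.00 to 19.5% for transcripts not called, a wider search by construction. Over the 138 named transcripts, 2746 values were computed under the alternatives, of which 2492 kept their side of the threshold, 226 fell short of it and 28 newly passed. The sign differed from that reported in 35 of these values, over 14 transcripts, and 0 of the 35 belonged to a call.

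The labels give the same replicate numbers to both conditions without saying that a number marks a shared passage. Deviations from the group means of same-numbered RNA-seq libraries correlated at 0.241, 0.0612 and 0.167, and of Ribo-seq libraries at 0.120 and 0.145, so the pairing was not shown for every pair. Each library that had a same-numbered partner correlated best with it. The deviations of the 2 DMSO Ribo-seq libraries mirror each other, so their correlations with a Torin1 library are equal and opposite by construction. With the replicate number as a block, TE calls were 457 (422 lower and 35 higher), of which 374 and 17 were shared, footprint calls 1787 and mRNA calls 1328. The call of Sesn2 was among those lost (adjusted p = 0.0679). The KO and three-way fits kept their counts within 1.5 times under the block. Transcripts with few footprints had the largest standard errors. Without the shallow DMSO Ribo-seq replicate 3 there were 497 TE calls.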

Other observations

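Some groups of transcripts that share the start of their symbols were set after the values were seen and are given as counts without a test. Of 146 solute carriers other than the SLC25 family 14 (9.59%) had lower TE, of 23 ABC transporters 5 (21.7%), of 18 P-type ATPases 4 (22.2%) and of 10 receptor tyrosine phosphatases of the Ptpr family 3, compared with 4.29% of all transcripts, and 0 of any of these groups rose. The symbols beginning with Tmem held 9 of 123 (7.32%). Of 6 beta tubulins 3 had lower TE, with a median of -0.73 on the log2 scale, and of 13 importins 2, while of 11 cyclins 0 were lower and 1 was higher.

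Among 155 predicted gene symbols (Gm and digits) 12 had lower and 2 higher TE, and among 11 symbols of pseudogenes 5 and 1. Reads of such copies can belong to their parent genes.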
